A study of Homo sapiens with 2 samples.

Results

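Tight junctions seal the space between neighbouring epithelial cells. Claudins and occludin span the membrane and meet their partners on the next cell, junctional adhesion molecules stand beside them, and the zonula occludens proteins hold them to actin from inside. The PAR3 complex positions this belt at the border of the apical surface. In pancreatic ducts the belt keeps secreted fluid and bicarbonate in the lumen, and claudins are among the surface proteins studied in pancreatic carcinoma.

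The genes described here are CLDN1, CLDN3, CLDN4 and CLDN7 (claudins), OCLN (occludin), F11R (junctional adhesion molecule A), TJP1 and TJP3 (zonula occludens proteins 1 and 3) and PARD3 (PAR3). They were taken as all probe sets of an Affymetrix U133A array whose annotation gives exactly 1 gene symbol, that symbol being one of the 9. This gave 14 of 19071 such probe sets and covered 8 of the 9 genes. F11R is given for no probe set in the annotation used here and so has no value. Probe sets are short stretches of a transcript, and several for 1 gene read the same RNA and are not replicates.

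The lines were H6c7, duct epithelium of the human pancreas immortalised with papillomavirus genes that both groups carry, and H6c7 given a K-ras oncogene. Treatment, time in culture, the K-ras mutation and whether the K-ras cells were a clone or a pool are not in the labels, and no empty-vector line is named. Each line has 1 array, so there is no replicate error, no difference was tested and the number of arrays limits every value. The comparison sets junction transcripts of the oncogene-carrying cells against those of the parent.

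The array-wide facts are few. The floor, below which a signal was not read as a level, was 46.9, the higher of the arrays' median signals (43.9 parental, 46.9 K-ras). The highest of 27 bacterial control probe sets was 36.3, and 9 hybridisation spikes had log2 ratios between -0.31 and 0.29. The ratio of the 3' to the 5' control signal was 1.28 in the parental and 1.10 in the K-ras line for ACTB, and 0.817 and 0.888 for GAPDH. Of 8 duct or simple epithelial markers, 7 passed the floor on each array. All 8 together had a summed signal of 18221 in the parental and 16935 in the K-ras line. CFTR, 1 of the 8, was below the floor on both, and KRT19, EPCAM and SOX9 were lower on the K-ras array by 2-fold or more. The others stayed under 2-fold. KRT8 (log2 ratio 0.88) and KRT18 (0.38) were higher on the K-ras array, and KRT7 (-0.32) and the brighter CDH1 probe set (-0.03) were lower. The basal keratins KRT5 and KRT14 summed to 12197 and 19531, so the lines also carry markers of stratified epithelium. Of 6 fibroblast markers, 2 were above the floor in the parental and 3 in the K-ras line (summed signal 223 and 271), with LUM at 0.3 and 0.2. Of 4 endothelial, 3 leukocyte and 2 acinar markers with a probe set, 0 were above it in the parental and 1 each (PECAM1, CD3D and CELA3A) in the K-ras line. Their summed signals were 45.6 and 117, 50.5 and 61.0, and 46.7 and 58.2 on the parental and K-ras array. The 3 islet markers were below the floor throughout, as were VWF, CDH5 and PTPRC. The part of these marker differences in the junction values was not tested.

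Among the tight junction probe sets, 6 of 14 were above the floor on both arrays and 8 were below it on both, with none on 1 array alone. The 6 belong to CLDN1, CLDN7, TJP1 and PARD3. OCLN, CLDN3, CLDN4 and TJP3 were not measured at this floor. The claudins and PARD3 had higher signals in the K-ras line, all by less than 2-fold, and TJP1 was lower, in 1 probe set by 3.21-fold. Thus 0 of 6 measured probe sets passed 2-fold upwards, against 10.1% of the 11084 measured probe sets with 1 symbol, and 1 of 6 passed it downwards, against 14.7%. With so few members these counts do not set the genes apart from the array as a whole. The median log2 ratio of the 6 was 0.53, and that of all measured probe sets was 0.07. The tight junction median was 0.03 with the floor at the 70th percentile, and turned to -0.45 over the 2 probe sets left without _x_at and _s_at names, so it has no settled direction. In bulk RNA, fewer cells with a transcript and less of it per cell cannot be told apart.

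**Figure D1:**
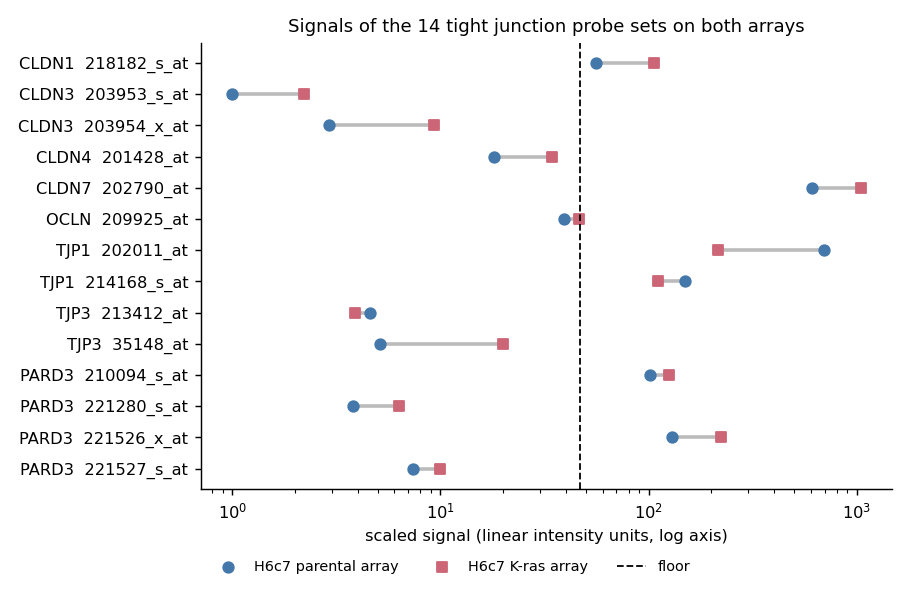
Scaled signal (linear intensity, log axis) of each of the 14 tight junction probe sets on the parental array (circles) and the K-ras array (squares), with the floor of 46.9 dashed. The 6 measured probe sets lie to the right of the line; CLDN1, CLDN7 and PARD3 have the K-ras point on the right and TJP1 on the left, and OCLN stops just short of the line.

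The claudins decide how tight the seal is and which ions pass. CLDN7, a claudin of the lateral membrane that also binds EPCAM, had a signal of 608 on the parental and 1046 on the K-ras array. The K-ras array was thus the higher one, by 1.72-fold (log2 ratio 0.78), and 83.8% of all measured probe sets had a lower ratio. CLDN1, a barrier-forming claudin that is also prominent in skin, had a signal of 56.0 on the parental and 107 on the K-ras array. The ratio was 1.90-fold (log2 0.93, above 88.3% of measured probe sets), but the parental signal stood only a little above the floor. CLDN1 and CLDN7 have 1 probe set each, so neither ratio can be checked against another probe set.

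The one repeat within these data is that between probe sets of 1 gene, which read the same RNA and give no spread between cultures. Whether part of their spread comes from different transcripts of a gene was not tested. In 1671 genes at least 2 probe sets passed the floor on each array, and within such a gene the log2 ratio had a pooled standard deviation of 0.46. It was 0.49 for the 765 genes with a mean signal under 188, which is 4 times the floor, and 0.43 for the 906 genes above. The log2 ratios of CLDN1 and CLDN7 were larger than this spread, but with a trend of ratio on gene size subtracted that of CLDN7 was 0.42, under it. It leaves out the spread between RNA samples, which 1 array per line cannot give.

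Both claudins shared a direction, so the 250 bases before their RefSeq start sites (GRCh38.p14) are shown, with the E-box CAGGTG, or CACCTG on the other strand, in capitals. This hexamer is the recognition sequence of the SNAI and ZEB repressors, which are known to act on claudin and occludin genes. CLDN1 has 1 start in the table (chr3:190322447-190322696, minus strand) and CLDN7 has 2, of which the downstream one (chr17:7262479-7262728, minus strand) is printed first.
CLDN7: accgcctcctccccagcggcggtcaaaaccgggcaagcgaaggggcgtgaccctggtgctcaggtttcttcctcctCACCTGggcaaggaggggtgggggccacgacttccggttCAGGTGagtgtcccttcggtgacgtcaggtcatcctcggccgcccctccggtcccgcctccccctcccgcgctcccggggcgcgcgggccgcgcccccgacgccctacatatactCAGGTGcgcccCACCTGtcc
CLDN7 upstream start: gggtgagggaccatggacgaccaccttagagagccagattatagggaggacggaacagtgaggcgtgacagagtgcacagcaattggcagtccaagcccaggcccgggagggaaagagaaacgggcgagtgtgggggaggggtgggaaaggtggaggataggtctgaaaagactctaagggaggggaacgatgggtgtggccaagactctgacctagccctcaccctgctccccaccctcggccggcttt
CLDN1: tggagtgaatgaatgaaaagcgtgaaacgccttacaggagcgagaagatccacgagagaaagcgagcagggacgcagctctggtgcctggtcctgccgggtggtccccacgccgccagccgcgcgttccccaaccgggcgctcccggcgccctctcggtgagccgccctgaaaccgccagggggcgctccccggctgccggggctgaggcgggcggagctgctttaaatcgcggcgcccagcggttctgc
The downstream CLDN7 window holds 4 E-boxes, a pair of them within the last bases before the start, and the upstream one (chr17:7263214-7263463) holds 0, as does the CLDN1 window. Of 35116 RefSeq windows of this length, 17.5% hold at least 1 E-box and 43 (0.122%) hold 4 or more. A match describes the letters of a window and is no evidence of binding.

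CLDN3 and CLDN4 are neighbours on 1 chromosome with no protein-coding gene between them, and both were below the floor. CLDN4 had signals of 18.1 in the parental and 34.2 in the K-ras line. Of the 27 bacterial controls, 3 reached the CLDN4 signal on the parental and 1 on the K-ras array. The CLDN3 probe sets had signals of 1.0 and 2.2 (203953_s_at) and of 2.9 and 9.3 (203954_x_at) in the parental and K-ras line. All of these were higher on the K-ras array, but no ratio is given at such signals. Of the 8 unmeasured tight junction probe sets, 7 had the higher signal on the K-ras array. The same was true of 66.9% of the 7981 probe sets with 1 symbol below the floor on both arrays.

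Occludin, a membrane protein with a MARVEL domain that stabilises the strands, lay just under the limit. OCLN gave 39.1 (parental) and 46.5 (K-ras), against the floor of 46.9. No bacterial control reached these signals on either array, so OCLN stood above those controls without passing the floor. With the floor lowered to the 30th percentile, 19.9, its log2 ratio was 0.25, far under 2-fold.

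TJP1 encodes zonula occludens protein 1, the scaffold that claudins, occludin and junctional adhesion molecules bind through its PDZ domains and neighbouring parts. Probe set 202011_at had a signal of 692 in the parental and 216 in the K-ras line. The K-ras line was the lower one by 3.21-fold (log2 ratio -1.68), and only 5.11% of measured probe sets had a lower ratio. Probe set 214168_s_at had a signal of 150 in the parental and 110 in the K-ras line (1.35-fold lower, log2 ratio -0.44). Both probe sets were lower in the K-ras line, by unequal amounts. Their log2 ratios were 1.24 apart, a gap wider than in 94.3% of the 1190 genes with exactly 2 probe sets passing the floor on each array, whose median gap was 0.38. The mean of the 2 log2 ratios was -1.06. Whether the probe sets read different transcripts of TJP1 was not tested.

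TJP1 has 4 start sites in the RefSeq table, so its RNA can begin at places far apart. The window before the most upstream one (chr15:29969050-29969299, GRCh38.p14, minus strand) is the one of the 4 that holds the E-box, 1 time, and it is shown for comparison with the claudins, again with the E-box in capitals.
TJP1: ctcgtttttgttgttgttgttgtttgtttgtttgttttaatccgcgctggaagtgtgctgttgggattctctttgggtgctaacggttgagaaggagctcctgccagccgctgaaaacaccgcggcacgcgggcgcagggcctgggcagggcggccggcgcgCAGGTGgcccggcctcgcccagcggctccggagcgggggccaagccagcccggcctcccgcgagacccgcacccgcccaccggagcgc
The other zonula occludens gene of the set, TJP3, was below the floor in both of its probe sets. Signals were 4.6 in the parental and 3.9 in the K-ras line for 213412_at, and 5.1 and 19.9 for 35148_at. These differ in direction between the probe sets and support no ratio.

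Among the 13 promoter windows of the 7 tight junction genes that have an entry, 5 hold an E-box, against 17.5% of all windows. These 5 belong to CLDN7, TJP1, TJP3 and OCLN, the last with 1 in each of its 2 windows. Windows of 1 gene are not independent, and TJP1 has 4 of the 13. The AP-1 sequence TGANTCA, a target of FOS and JUN proteins, occurs in 1 of the 13 windows, that of CLDN4, and in 6.57% of all windows. The GC box GGGCGG, read on both strands, occurs in 10 of 13 and in 42.6% of all. No E-box in these windows overlapped an AP-1 sequence or a GC box. CLDN4 and OCLN were not measured, so these sequences cannot be set against a ratio.

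PARD3 encodes PAR3, a PDZ scaffold that binds junctional adhesion molecules and brings PAR6 and atypical protein kinase C to the forming junction. Probe set 221526_x_at had a signal of 129 in the parental and 222 in the K-ras line, 1.72-fold higher (log2 ratio 0.78). Its name ends in _x_at, which marks probes that can pick up related transcripts, so this value is uncertain. Probe set 210094_s_at had a signal of 102 in the parental and 125 in the K-ras line, 1.22-fold higher (log2 ratio 0.29). Both were higher in the K-ras line and stayed under 2-fold. Their gap of 0.49 was wider than in 61.7% of genes with 2 such probe sets. The other 2 PARD3 probe sets had signals of 3.8 and 6.3 (221280_s_at) and of 7.4 and 9.9 (221527_s_at), all below the floor.

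**Figure D2:**
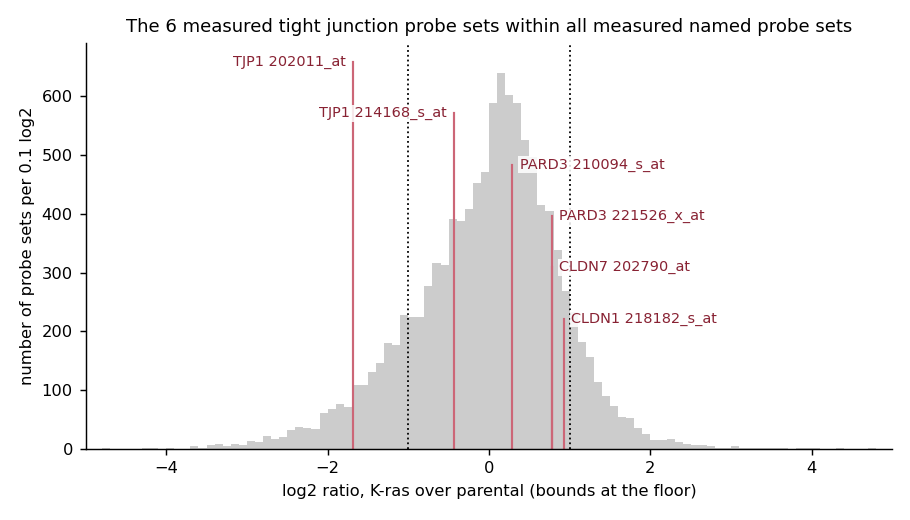
Histogram of the log2 ratio (K-ras over parental, probe sets below the floor on 1 array at their bound) of all 11084 measured probe sets with 1 symbol, with the 6 measured tight junction probe sets as vertical lines and 2-fold as dotted lines; 4 probe sets lie beyond the axis. TJP1 202011_at, at -1.68, is the only one of the 6 outside the dotted lines, and CLDN1, at 0.93, comes closest to the upper one.

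The direction of each of the 6 ratios was the same under each alternative setting that gave a value. TJP1 202011_at stayed more than 2-fold lower in all 11, with log2 ratios from -1.78 to -1.49. CLDN7 ranged from 0.42 to 0.98 and CLDN1 from 0.58 to 1.13. When the arrays were scaled on 100 maintenance probe sets, the median log2 ratio of all probe sets passing the floor on each array rose by 0.16, which brought CLDN1 past 2-fold with it. PARD3 210094_s_at came down to a bound of 0.03 with the floor at the 70th percentile, too near 0 for a direction.

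**Figure D3:**
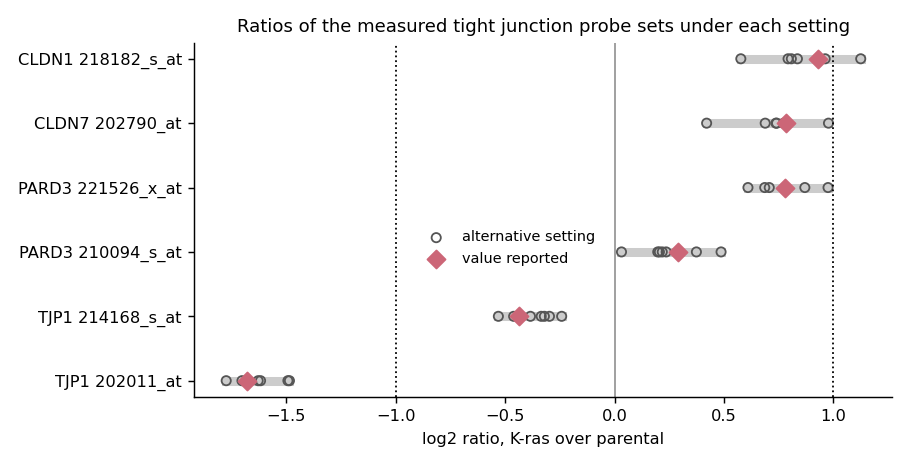
Log2 ratio (K-ras over parental) of the 6 measured tight junction probe sets as reported (diamonds) and under 9 to 11 alternative settings each (open circles), with grey bars from the lowest to the highest and 2-fold as dotted lines. No bar crosses 0, and the bar of CLDN1 alone reaches past the upper dotted line.

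Gene size moved with the ratio on these arrays and differs widely among the tight junction genes. Over 8346 probe sets that passed the floor on each array, the log2 ratio correlated with the log10 genomic span of the gene at Pearson's r = -0.18, a description over probe sets that share the same 2 arrays. The median log2 ratio was 0.42 for 719 probe sets of genes under 5 kb and 0.25 for 2470 between 5 and 20 kb. It was -0.03 for 3886 between 20 and 100 kb and -0.09 for 1271 over 100 kb. CLDN7 spans 3.31 kb and CLDN1 16.7 kb, so the higher claudin ratios lie where other short genes were higher too. TJP1 spans 270 kb and PARD3 706 kb, and these 2 long genes had ratios of opposite sign. With the trend subtracted, the log2 ratio of CLDN7 was 0.42, of CLDN1 0.79, of TJP1 202011_at -1.63 and of PARD3 221526_x_at 0.71. The 20 nearest genes above the floor on both arrays had a median log2 ratio of 0.42 around CLDN7, -0.05 around CLDN1, -0.30 around TJP1 and -0.35 around PARD3. CLDN7 and TJP1 thus had the sign of their surroundings, and PARD3 had the opposite sign. The median around CLDN1 was too near 0 for a direction. The part of gene size and position in these ratios was not tested beyond the subtraction.

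**Figure D4:**
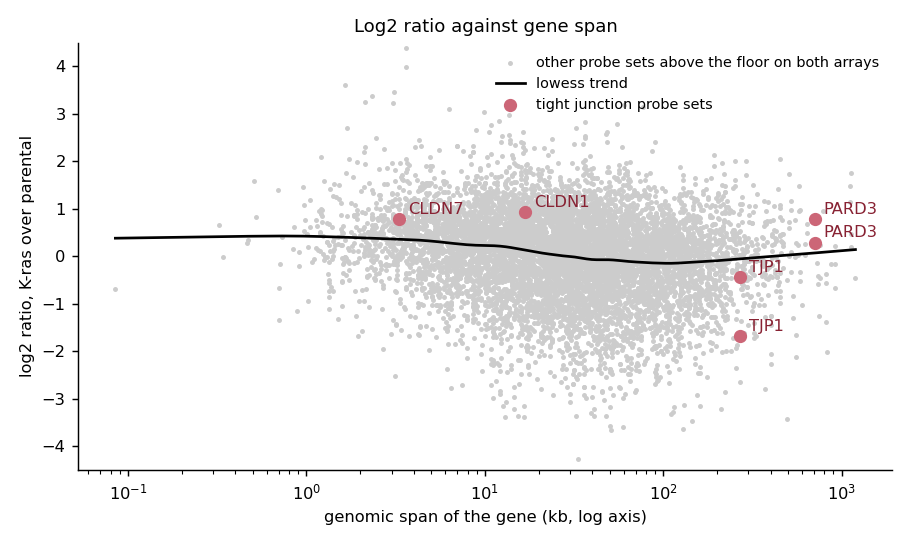
Log2 ratio (K-ras over parental) against the genomic span of the gene in kb (log axis) for the 8346 probe sets passing the floor on each array (grey), of which 5 lie beyond the vertical axis, with a lowess trend (black) and the 6 tight junction probe sets (red). CLDN7 sits at the short end where the trend is above 0, while TJP1 and PARD3 lie at the long end on opposite sides of it.

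The remaining genes of the junction and of cell polarity went both ways. Of 69 genes, 45 had a probe set with 1 symbol and 30 were measured, taking for each gene the probe set with the highest mean log2 signal. Among the 30, 4 passed 2-fold upwards and 4 downwards, 13.3% each, against 9.97% and 14.4% of 7693 measured genes. Their median log2 ratio was 0.22, and that of all measured genes 0.10, with bounds taken at the floor. These shares are close to those of the array as a whole.

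No other claudin passed 2-fold. Of 17 further claudins, 11 had a probe set and 3 were measured, with CLDN6 at a log2 ratio of 0.27, CLDN11 at 0.37 and CLDN10 at 0.53 or more. CLDN6 had signals of 54.1 in the parental and 65.2 in the K-ras line, CLDN11 of 72.1 and 93.1, and CLDN10 of 41.1 and 67.9. All 3 lay near the floor. CLDN6 and CLDN11 were higher on the K-ras array. CLDN10 passed the floor on that array alone, so its direction was set by the floor. Of all measured probe sets with 1 symbol, 54.0% had a log2 ratio above 0. Of the other transmembrane proteins, CXADR, an adhesion protein of the immunoglobulin family known as a virus receptor, had a signal of 207 in the parental and 68.8 in the K-ras line. It was 3.01-fold lower. JAM3, a relative of F11R, passed the floor on the K-ras array alone, with a log2 ratio of at least 0.18.

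Among plaque and scaffold proteins, 3 of 8 measured genes passed 2-fold upwards and 0 downwards, against 9.97% and 14.4% of all measured genes, and the median log2 ratio was 0.38. These counts over 8 genes were not tested, and the list was chosen with earlier results of these data known. AMOTL2, an angiomotin-like protein that links junctions to actin, had a signal of 228 in the parental and 742 in the K-ras line, 3.25-fold higher. ARHGEF18, an exchange factor that activates RhoA at junctions, had signals of 359 and 900.2 and was 2.51-fold higher. YBX3, a Y-box factor that binds the SH3 domain of zonula occludens protein 1, had signals of 1283 and 2908 (2.27-fold higher). A second YBX3 probe set gave 2.07-fold. The vesicle GTPase RAB13 (log2 ratio 0.34) and SYMPK (at least 0.42) were under 2-fold.

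In the polarity list 1 of 17 measured genes (5.88%) passed 2-fold upwards and 3 (17.65%) downwards, and the median log2 ratio was 0.10. Of all 7693 measured genes, 9.97% passed it upwards and 14.4% downwards, so these counts do not set the list apart. DLG1, a PDZ scaffold of the lateral membrane, had a signal of 557 in the parental and 145 in the K-ras line (3.83-fold lower). A second DLG1 probe set gave 5.09-fold, and 2 dimmer ones gave log2 bounds of -0.28 and -0.35 or lower. LIN7C, another PDZ protein of polarity complexes, had signals of 246 and 119, 2.06-fold lower. ECT2, a GTPase exchange factor of cell division that also binds PAR6, passed the floor on the parental array alone and was at least 5.63-fold lower. The polarity kinase STK11 (LKB1) had signals of 62.8 and 185 and was 2.95-fold higher. Measured genes of the PAR3 complex, with CDC42, were under 2-fold in the probe sets used. The log2 ratios were 0.77 for PRKCZ, -0.51 for PRKCI, 0.10 for PARD6A and -0.71 for CDC42. PARD6B was below the floor on both arrays and PARD6G had no probe set with its symbol. A second PRKCI probe set gave -1.29. These genes were chosen for naming after their values were seen.

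Of 6 measured claudin partners and membrane protease genes, 1 passed 2-fold in each direction (median log2 ratio 0.34). Of all 7693 measured genes, 9.97% passed it upwards and 14.4% downwards. EPCAM, the adhesion protein that binds CLDN7, had a signal of 994 in the parental and 478 in the K-ras line (2.08-fold lower, log2 ratio -1.06). CLDN7 was thus higher and its partner lower in the same cells. PRSS8 (prostasin), a membrane serine protease of tight epithelia, had signals of 141 and 772, 5.48-fold higher. The Kunitz inhibitors SPINT1 and SPINT2 had log2 ratios of 0.89 and 0.63, and the ubiquitin ligase ITCH -0.29, with another probe set at 0.64. In the contractility list, which holds the actomyosin regulators that pull on the belt, 1 of 6 passed 2-fold downwards and 0 upwards (median -0.21). With 6 measured genes each, neither count sets its list apart from these array-wide shares. ROCK1 was at least 8.82-fold lower on its brighter probe set, from 414 to 21.4, but only 1.76-fold lower on another. MYL9 had a log2 ratio of 0.64, MYL12A -0.24, MYL12B -0.41 and RHOA -0.18.

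The next list holds transcription factors of epithelial identity, several known to act on claudin genes. Of 5 measured, 2 passed 2-fold upwards and 1 downwards (median log2 ratio -0.05), against 9.97% and 14.4% of 7693 measured genes. Counts over 5 genes are too small to set this list apart, and they were not tested. SNAI2, a repressor that binds the E-box shown above, had a signal of 945 in the parental and 398 in the K-ras line, 2.37-fold lower on its 1 probe set. SNAI1, ZEB1, ZEB2 and TWIST1 were below the floor on both arrays. KLF5 had signals of 207 and 909 (4.38-fold higher, another probe set 2.09-fold) and KLF4 of 101 and 433 (4.27-fold higher), both of which are epithelial zinc finger factors. GRHL2, an activator of claudin genes, had a log2 ratio of -0.65 and ELF3 of -0.05. Whether SNAI2 acts on CLDN7 in these cells was not tested.

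**Figure D5:**
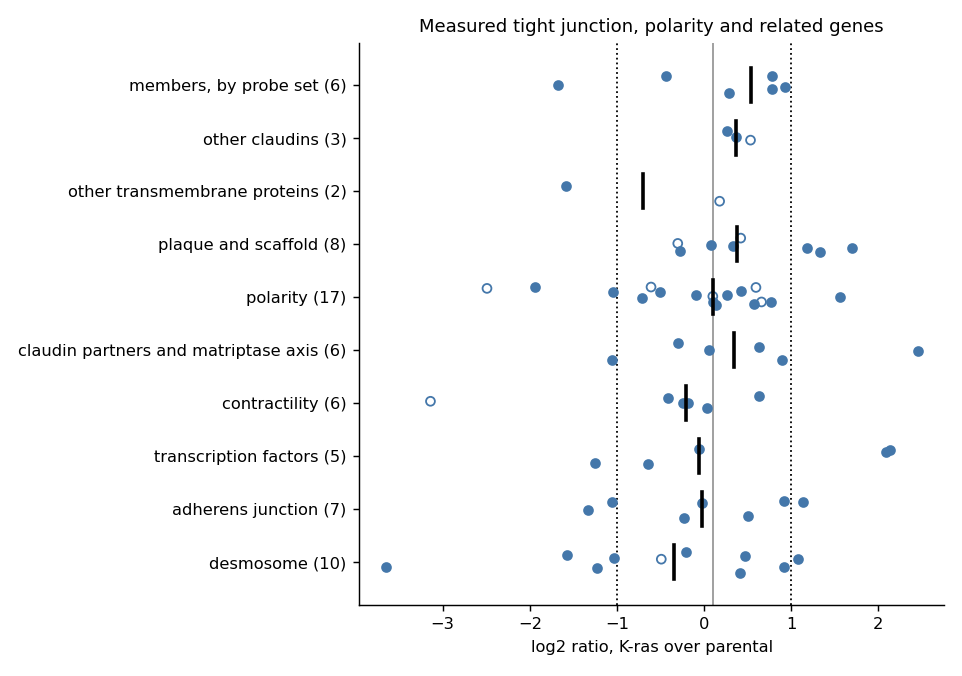
Log2 ratio (K-ras over parental) of the 6 tight junction probe sets and of each measured gene of the other lists (number measured in brackets), with filled points above the floor on both arrays, open points as bounds, black bars at list medians, a grey line at the median of all measured genes (0.10) and dotted lines at 2-fold. Vertical scatter within a row is only for legibility; the 3 other claudins lie between 0.27 and 0.53, and the desmosome list reaches furthest down.

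The other junctions of the same cells are given for comparison, against the same 9.97% higher and 14.4% lower among all measured genes. In the adherens junction list 1 of 7 measured genes passed 2-fold upwards and 2 downwards (median log2 ratio -0.03), with VCL at -1.34, CTNNB1 at -1.05, NECTIN1 at 1.14 and CDH1 at -0.03. Another, dimmer probe set gave -0.51 for CDH1 and a bound of 0.29 or more for NECTIN1. In the desmosome list 1 of 10 passed it upwards and 4 downwards (median -0.35), with DSG2 at -3.66, DSP at -1.58 and PKP2 at -1.23. A dimmer PKP2 probe set gave a bound of -0.16 or lower. Each of the 3 kinds of junction thus held genes with higher and with lower signals in the K-ras line. With 1 array per line no difference between the lists could be tested.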

How the data were processed

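RNA of H6c7 and of K-ras H6c7 was hybridised to 1 Affymetrix U133A array each, per the labels. The authors deposited 1 linear intensity per probe set and array for 22283 probe sets (68 controls); the program that computed it is not named in the labels. The means of both columns after trimming 2% at each end were 150.1, the form of a signal already scaled to a common target. Of the probe sets, 19071 have 1 symbol in the array annotation, 1043 several and 2169 none, and 19059 of the 19071 matched GRCh38.p14 RefSeq genes by gene number.

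Columns were rescaled to a common trimmed mean, which left values practically as deposited. Ratios are K-ras over parental per probe set. A probe set below the floor on both arrays was not measured, and one below it on 1 array has a bound against the floor. Called means at least 2-fold. Spans and the 250 bases before start sites are from RefSeq GRCh38.p14, where 7 of the 9 genes have a promoter entry. Named list genes are up to 5 per list (3 for adherens junctions and desmosomes) with the largest absolute log2 ratio, plus CDH1, EPCAM, SNAI2 and ZEB1; 1 further gene of the rule is not reported here. Members and lists were chosen with earlier results of these data known. With 1 array per line there is no test. Alternatives changed the scaling, floor, threshold, probe set kinds, probe set choice and gene span trend. The ratio step was checked on simulated arrays with changes planted in bright probe sets only. That check did not bear on signals near the floor. Trends used statsmodels 0.14.6, trimmed means scipy 1.17.1 and figures matplotlib 3.10.9, in Python 3.11.15 with pandas 2.3.3 and numpy 2.4.6.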

Additional observations from a re-analysis of the deposited data

How the results depend on the processing

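With no replicates, a ratio was taken as moved when it changed by more than the pooled standard deviation between probe sets of 1 gene, 0.46. None of the 6 tight junction ratios moved by that much under the 9 to 11 settings that gave each a value, and the count of 1 probe set at least 2-fold lower was 1 under all 12 alternatives run for it. The count at least 2-fold higher, 0 of 6, became 1 with scaling on 100 maintenance probe sets (CLDN1) and 3 of 14 with no floor (both CLDN3 probe sets and 1 of TJP3, all with signals under the floor). The median log2 ratio, 0.53, was 0.032 with the floor at the 70th percentile (5 probe sets) and -0.45 without _x_at and _s_at probe sets, which leaves 2 (CLDN7 and TJP1 202011_at). Among other tight junction and polarity genes, the 4 higher became 9 of 37 with the floor at the 30th percentile, 13 of 45 with no floor and 1 at a threshold of 3-fold, and the 4 lower became 7 with no floor. Fewer or more probe sets pass each of these floors by construction. Over all measured probe sets with 1 symbol, 1124 were at least 2-fold higher and 1626 lower, 40.9% and the rest, whereas maintenance scaling gave 1576 and 1230. The floor at the 30th percentile gave 1990 higher and 2193 lower, and no floor gave 4041 and 3040. A threshold of 3-fold gave 287 and 673. The counts over the whole array thus changed with these settings too, and the changes in counts are not particular to junction genes. The tight junction median is another matter. The median of all probe sets passing the floor on each array shifted by -0.0075 with the floor at the 70th percentile. It shifted by 0.015 without _x_at and _s_at probe sets. Of 20 named list genes past 2-fold, 7 fell under it in some setting (CTNNB1, CXADR, EPCAM, LIN7C, NECTIN1, PKP2 and STK11), and none changed sign. No paired analysis was possible because each line has 1 array. OCLN and CLDN4 gave no ratio because their signals were under the floor, and the parental signal of CLDN1 was close to it.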
